A study of Homo sapiens with 12 samples.

Results

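The desmosome was followed here through 10 genes, DSG2, DSG3, DSC2, DSC3, DSP, JUP, PKP1, PKP2, PKP3 and PERP. They were chosen by symbol as the cadherins and plaque proteins of this junction and make up 10 of the 58288 genes listed. All 10 passed the filter on low values (transcripts per 1000000, TPM, of at least 1 in 3 or more libraries) and so belong to the 15973 genes tested.

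RNA-Seq was performed on FaDu cells, an established head and neck squamous cell carcinoma (HNSCC) line, in 4 groups of 3 libraries. STING WT cells carried a non-targeting gRNA and STING KO cells a gRNA against TMEM173, the gene of STING, both delivered with lentivirus into Cas9-expressing cells and selected with puromycin. Each line was left unirradiated (0 Gy) or given 4 daily treatments of 2 Gy (RT). The labels do not say how long after the last treatment the RNA was collected, nor whether the 3 libraries of a group came from separate cultures. P-values then measure only the spread between these libraries, which may be technical. With 1 STING KO line and 1 control line, the effect of the knockout and any other difference between the lines cannot be told apart. In bulk RNA, fewer cells of a type and less RNA per cell cannot be told apart either.

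Desmosomes are the patches that rivet neighbouring epithelial cells together. Outside the cell, desmogleins (DSG) and desmocollins (DSC), which are calcium-dependent cadherins, bind those of the next cell. Inside, their tails hold the armadillo proteins plakoglobin (JUP) and the plakophilins (PKP), which recruit desmoplakin (DSP), and desmoplakin anchors the keratin filaments. DSG2 and DSC2 are the cadherins of simple epithelia and of many carcinomas, whereas DSG3 and DSC3 belong mainly to the basal layers of stratified squamous epithelium, the tissue from which HNSCC arises. PERP is a small membrane protein of stratified epithelial desmosomes and a known p53 target.

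The line was first checked for its labels. TMEM173 lay between 21.2 and 26.1 TPM in the 6 STING WT libraries and between 5.18 and 7.41 TPM in the 6 STING KO libraries, without overlap. It was lower in STING KO by 1.77 on the log2(TPM + 1) scale at 0 Gy (limma, adjusted p = 1.2e-05). All 6 squamous epithelial markers examined were expressed, with a summed level of 2611 to 5514 TPM per library. The fibroblast markers summed to 6.40 to 9.37 TPM and the immune markers to 2.62 to 4.35 TPM. The endothelial markers summed to 11.5 to 23.9 TPM, of which PECAM1 was at most 0.0989 TPM. The mesenchymal markers summed to 71.2 to 108 TPM, mostly from SNAI2, with VIM, the vimentin gene, at most 1.25 TPM. Between 14860 and 15292 genes reached 1 TPM in a library. TPM keeps no read depth, so the depth behind a value is unknown.

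All 4 cadherin genes stand in 1 cluster on chromosome 18 (GRCh38). DSC3 (chr18:30990008-31042815) and DSC2 (chr18:31058840-31102522) are on the minus strand, and DSG3 (chr18:31447795-31478702) and DSG2 (chr18:31498043-31549008) on the plus strand. DSP (chr6:7541575-7586717, plus strand) and PERP (chr6:138088505-138107511, minus strand) share chromosome 6. PKP1 is at chr1:201283452-201332993 (plus strand), PKP2 at chr12:32790745-32896840 (minus strand), PKP3 at chr11:392614-404908 (plus strand) and JUP at chr17:41754604-41786931 (minus strand). DSG2 overlaps the antisense gene DSG2-AS1 and DSC2 overlaps DSCAS, both at a mean below 0.17 TPM in every group. PKP2 overlaps AC087588.2, a gene within its introns on the same strand (1.33 TPM over the 12 libraries), and AC087588.1, a pseudogene on the other strand that is listed at 0. The strand setting of the counting is not given in the sources used here, so reads of such pairs cannot be told apart. DSC2 and DSC3 have 31 stretches of 50 bases in common, and no other pair of members shares any. Of the 50-base stretches of PKP2, 5.02% also occur in transcripts of other genes on the same strand, and of DSG3 4.18%, so their levels are less certain than those of DSP, PKP1, PKP3 and JUP, which share none.

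The stretches just upstream of 4 start sites are shown, those of DSC3 and DSG3 because they were called lower after RT in both lines, and those of DSP and PERP because they passed in none of the comparisons. They are RefSeq promoter sequences (GRCh38.p14), read 5′ to 3′ on the strand of the gene and ended before the first annotated transcript base. The DSC3 stretch is chr18:31042816-31042992 (minus strand), the DSG3 stretch chr18:31447491-31447740 (plus strand), the DSP stretch chr6:7541421-7541574 (plus strand) and the PERP stretch chr6:138107512-138107669 (minus strand). Capitals mark matches, on either strand, to the 6 motifs searched.
DSC3: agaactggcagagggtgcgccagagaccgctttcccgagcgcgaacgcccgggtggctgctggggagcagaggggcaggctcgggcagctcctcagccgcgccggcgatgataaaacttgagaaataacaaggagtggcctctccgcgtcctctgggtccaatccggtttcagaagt
DSG3: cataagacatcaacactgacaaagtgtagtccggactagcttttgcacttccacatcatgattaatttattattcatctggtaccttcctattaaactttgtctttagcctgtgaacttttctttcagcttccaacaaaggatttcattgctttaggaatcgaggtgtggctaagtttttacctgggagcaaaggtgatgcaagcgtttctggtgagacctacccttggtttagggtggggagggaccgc
DSP: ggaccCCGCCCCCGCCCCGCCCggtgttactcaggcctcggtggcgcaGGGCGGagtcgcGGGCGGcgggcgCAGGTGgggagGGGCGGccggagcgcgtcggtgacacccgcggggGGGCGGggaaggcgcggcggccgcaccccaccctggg
PERP: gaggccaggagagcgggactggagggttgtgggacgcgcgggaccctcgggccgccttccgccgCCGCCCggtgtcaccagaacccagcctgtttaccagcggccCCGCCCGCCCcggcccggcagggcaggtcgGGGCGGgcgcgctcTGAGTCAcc

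The motifs were the GC box GGGCGG, the AP-1 site TGANTCA, the TATA box TATAAA, the CACCTG form of the E-box that SNAIL and ZEB repressors bind, the grainyhead site AACNGGTT and the interferon response core AANNGAAA. Neighbouring GC boxes can share bases, as they do in DSP and PERP. In the 250 bases before the RefSeq start, DSC3 and DSG3 held none of the 6 motifs. DSP held 7 GC boxes and 2 E-boxes. PERP held 5 GC boxes and 1 AP-1 site, which runs from -101 to -95 of the start. Among 35116 promoters of the same length, 42.6% held a GC box, 17.5% the E-box, 6.6% the AP-1 site, 10.7% the TATA box, 20.3% the interferon core and 1.5% the grainyhead site. The G and C share of these 250 bases was 42.8% for DSG3, 60.4% for DSC3, 77.2% for PERP and 78.0% for DSP, with a median of 58.0% over all promoters. PKP1 held 1 GC box, and DSG2 held 2 GC boxes and 2 E-boxes. DSC2 and JUP have 2 start sites each in the table, with GC boxes at both DSC2 starts and at 1 JUP start, 1 E-box at 1 DSC2 start and 2 E-boxes at the other JUP start. PKP2 and PKP3 are named only.

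The desmosome transcripts differed widely in abundance, and their order was the same in all 4 groups. DSP was the most abundant, at 404 ± 13.7 TPM (SD, n = 3) in unirradiated STING WT cells. JUP followed at 342 ± 15.2 TPM, DSG2 at 273 ± 2.08 TPM and PERP at 199 ± 9.10 TPM. The middle of the order was held by PKP3 at 166 ± 7.66 TPM, DSC3 at 110 ± 5.55 TPM and PKP2 at 55.4 ± 5.86 TPM. DSG3 (35.2 ± 1.30 TPM), DSC2 (21.2 ± 1.24 TPM) and PKP1 (20.2 ± 4.04 TPM) were lowest. Each neighbouring pair in this order was separated in every group, with no overlap of libraries, except DSC2 and PKP1 in unirradiated STING WT cells. FaDu cells thus carried both sets of cadherins, with the desmoglein of simple epithelia and the desmocollin of stratified epithelia as the major form of each pair. The plot of TPM by library shows all 120 values.

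**Figure D1:**
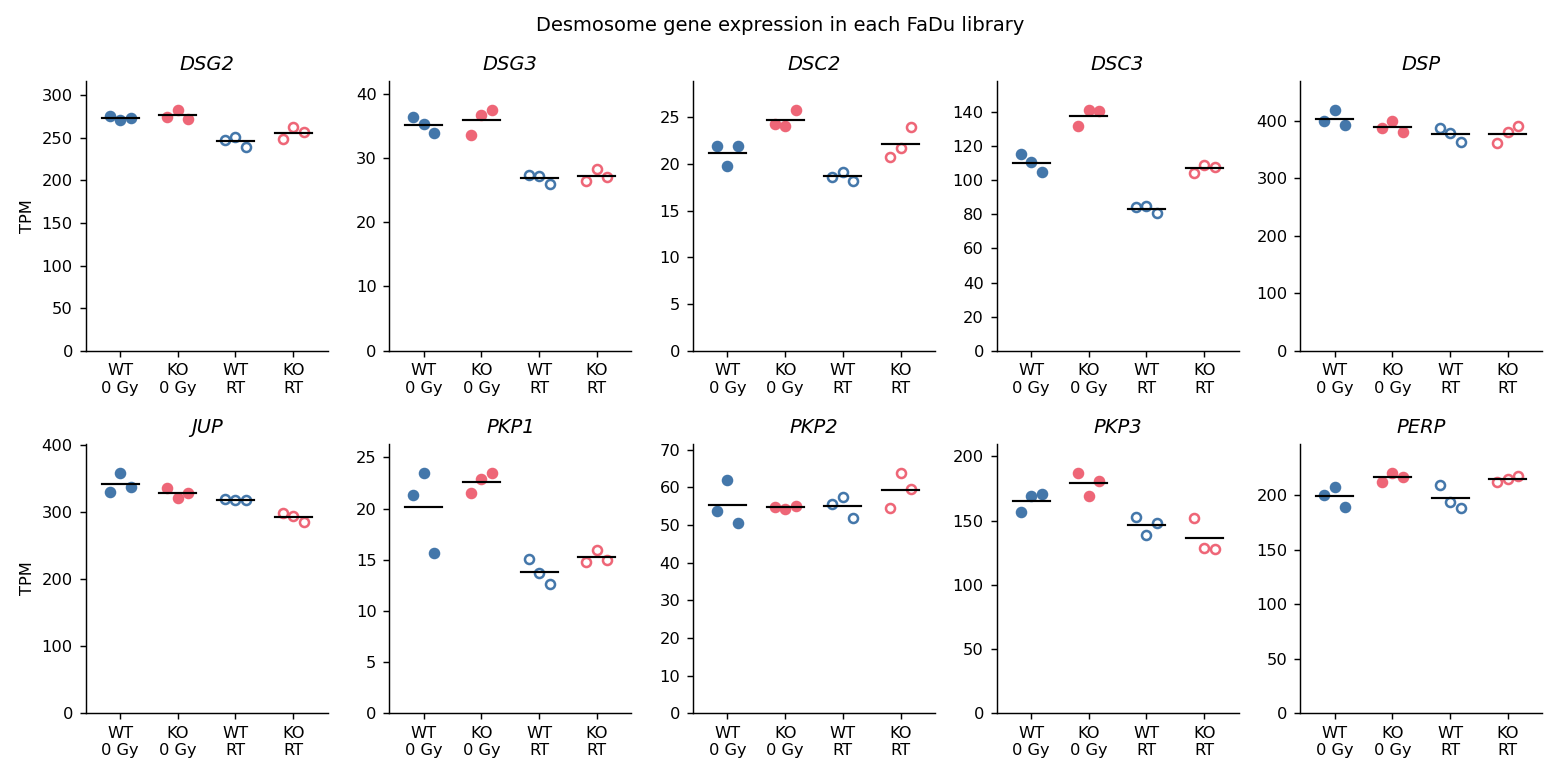
TPM of each desmosome gene in each library, in 1 panel per gene with its own axis from 0. Blue marks STING WT and red STING KO, filled points 0 Gy and open points RT, and the bar is the mean of 3 libraries. The RT libraries of DSC3, DSG3 and PKP1 lie below the 0 Gy libraries of the same line, while those of PERP and PKP2 overlap them.

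The first question was how the desmosome genes respond to fractionated radiation in cells with STING. DSC3, DSG3 and DSG2, 3 of the 4 cadherins, were lower after RT, and no member was called higher. DSC3 fell by 24.4%, DSG3 by 23.7% and DSG2 by 10.1%, as ratios of mean TPM. By the test across all genes, 3 of 10 members were lower and 7 did not pass, where 1.5% of all tested genes were called lower and 3.74% in either direction. The libraries did not overlap between RT and 0 Gy for 8 of 10 members, all lower, against 10.1% of all tested genes.

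DSC3 stood at 116, 111 and 105 TPM in the 3 unirradiated STING WT libraries and at 84.6, 84.8 and 80.6 TPM after RT. Every irradiated library was below every unirradiated one, and the difference was -0.40 on the log2(TPM + 1) scale (SE 0.049, 95% confidence interval -0.51 to -0.29, adjusted p = 0.0019, limma). DSG3, the antigen of pemphigus vulgaris, read 36.4, 35.4 and 33.8 TPM at 0 Gy and 27.4, 27.3 and 26.0 TPM after RT. The groups were again apart, by -0.38 (SE 0.057, interval -0.50 to -0.25, adjusted p = 0.0064). DSG2 went from 276, 271 and 273 TPM to 247, 251 and 240 TPM. This was a small, tightly replicated change of -0.15 (SE 0.036, interval -0.23 to -0.07, adjusted p = 0.046). It lies close to the threshold, and leaving out any of the 12 libraries brought its adjusted p to between 0.051 and 0.14. DSC2 was at 22.0, 19.8 and 21.9 TPM before and 18.6, 19.2 and 18.2 TPM after RT, a difference of -0.17 that did not pass (interval -0.32 to -0.03, adjusted p = 0.20).

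In the plaque, PKP1, the plakophilin of the upper squamous layers, showed the widest shift without passing the test. Its levels were 21.3, 23.5 and 15.7 TPM at 0 Gy and 15.1, 13.7 and 12.6 TPM after RT. The difference was -0.50 (interval -0.78 to -0.22, adjusted p = 0.056). Replicate 3 of the unirradiated libraries was the lowest of its group, and without it the difference was -0.66 with an adjusted p of 0.0047. PKP1 passed in that fit alone of the 12 that leave out a library. Over these 12 the difference ran from -0.66 to -0.38 and the adjusted p from 0.0047 to 0.16. PKP3, the broadly expressed plakophilin, differed by -0.18 (interval -0.34 to -0.01, adjusted p = 0.24) and JUP by -0.10 (interval -0.19 to -0.01, adjusted p = 0.22). DSP, the keratin anchor, differed by -0.10 (interval -0.20 to 0.00, adjusted p = 0.25). PKP2 and PERP lay nearest to no change, at -0.01 (interval -0.19 to 0.17) and -0.01 (interval -0.12 to 0.10).

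In STING KO cells, the squamous cadherins DSG3 and DSC3 and the plaque genes PKP1, PKP3 and JUP passed the test after RT, all lower, and no member was called higher. The called falls ran from 10.9% for JUP to 32.7% for PKP1. Thus 5 of 10 members were lower, where 1.7% of all tested genes were called lower and 3.69% in either direction. The libraries of 7 of 10 members did not overlap, all lower, against 10.6% of all tested genes. Among the 11146 genes with a mean of at least 5 TPM, to which all members belong, 5.02% were called in either direction after RT in STING WT and 5.25% in STING KO.

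DSC3 was at 132, 141 and 141 TPM in unirradiated STING KO cells and at 104, 109 and 108 TPM after RT. The libraries were well apart, by -0.36 on the log2(TPM + 1) scale (SE 0.049, interval -0.47 to -0.25, adjusted p = 0.0037). DSG3 went from 33.6, 36.7 and 37.5 TPM to 26.4, 28.3 and 27.1 TPM, a difference of -0.38 (SE 0.057, interval -0.51 to -0.26, adjusted p = 0.0056). Both calls held with each of the 12 libraries left out in turn, but in a fit to only the 6 libraries compared the adjusted p of DSG3 was 0.063.

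PKP1 read 21.5, 22.9 and 23.5 TPM at 0 Gy and 14.8, 15.99 and 14.9 TPM after RT. It differed by -0.54 (SE 0.125, interval -0.82 to -0.26, adjusted p = 0.042), with the unirradiated libraries close together. PKP3 was at 187, 169 and 181 TPM before and 152, 129 and 128 TPM after RT, a difference of -0.40 (SE 0.074, interval -0.56 to -0.23, adjusted p = 0.018). JUP, which also links adherens junction cadherins to the cytoskeleton, went from 336, 322 and 329 TPM to 298, 295 and 286 TPM. Its difference of -0.17 (SE 0.040, interval -0.25 to -0.08) passed narrowly, at an adjusted p of 0.049. These 3 calls were not stable to leaving out single libraries, for PKP1 and JUP also libraries of STING WT. The differences ran from -0.58 to -0.51 for PKP1, -0.18 to -0.15 for JUP and -0.48 to -0.35 for PKP3 over these fits. The PKP1 call held in 2 of the 12 fits that leave out a library (adjusted p 0.0065 to 0.13), the JUP call in 1 (0.036 to 0.14) and the PKP3 call in 8 (0.0067 to 0.067). The PKP1 call remained without replicate 2 or 3 of unirradiated STING WT, and the JUP call without replicate 2 of that group. The PKP3 call was lost without replicate 1 or 3 of unirradiated STING KO, or without replicate 2 or 3 of irradiated STING KO.

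The members that did not pass in STING KO cells were DSG2, DSC2, DSP, PKP2 and PERP. DSG2 differed by -0.11 (interval -0.19 to -0.03, adjusted p = 0.12), with 275, 283 and 273 TPM at 0 Gy and 248, 262 and 257 TPM after RT. Those libraries did not overlap. DSC2 differed by -0.15 (interval -0.30 to -0.01, adjusted p = 0.25). DSP, at 388, 399 and 381 TPM before and 362, 380 and 390 TPM after RT, overlapped between the groups. PKP2 differed by 0.11 (interval -0.07 to 0.29) and PERP by -0.01 (interval -0.12 to 0.10).

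**Figure D2:**
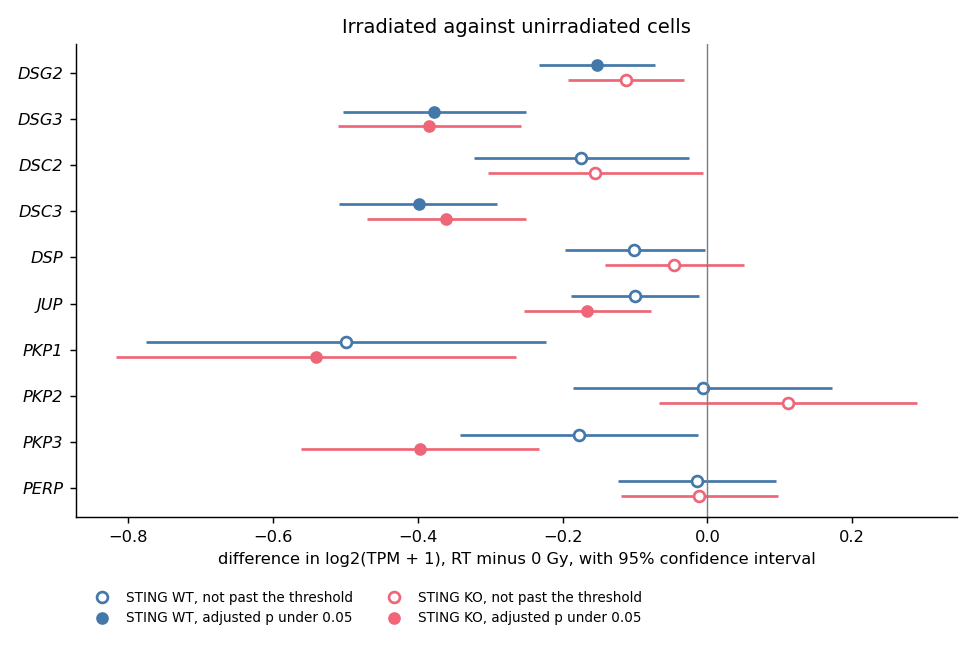
Difference in log2(TPM + 1) between RT and 0 Gy for each gene, with its 95% confidence interval, in STING WT (blue) and STING KO cells (red), from 3 libraries per group. Filled points passed the test across all genes: DSG2, DSG3 and DSC3 in STING WT, and DSG3, DSC3, PKP1, PKP3 and JUP in STING KO.

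Whether radiation acted differently with and without STING was tested as a difference between both radiation effects. None of 10 members passed (limma), and none had an unadjusted p under 0.05, where 0.0188% of all tested genes were called. The different calls in each line therefore do not show a difference between the lines. The member nearest to one was PKP3, whose radiation effect was lower in STING KO by 0.22 (interval -0.45 to 0.01, unadjusted p = 0.062, adjusted p = 0.76). For DSC3 the difference was 0.04 (interval -0.12 to 0.19), for DSG3 -0.01 (interval -0.19 to 0.17) and for PERP 0.00 (interval -0.15 to 0.16). The intervals were wider for PKP1, -0.43 to 0.35, and PKP2, -0.14 to 0.37, so changes of that size could not be seen.

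Averaged over both lines, a comparison added after the values were seen, RT lowered 6 of 10 members, where 4.04% of all tested genes were called lower. They were PKP1 (-0.52, SE 0.088, adjusted p = 0.0049), DSC3 (-0.38, SE 0.035, adjusted p = 0.00012), DSG3 (-0.38, SE 0.040, adjusted p = 0.00031), PKP3 (-0.29, SE 0.052, adjusted p = 0.0071), JUP (-0.13, SE 0.028, adjusted p = 0.015) and DSG2 (-0.13, SE 0.025, adjusted p = 0.0092). Each of the 6 calls held in all 12 fits without a library and under the 7 other settings. DSC2 did not pass, at -0.17 (adjusted p = 0.054). It was called in 3 of the 7 other settings (adjusted p down to 0.039) and in 2 of the 12 fits without a library, those without replicate 2 of unirradiated STING WT or replicate 3 of irradiated STING KO (down to 0.028), so that 6 members became 7. DSP, PKP2 and PERP did not pass either. The median difference over the 10 members was -0.15, beside 0.02 over all tested genes.

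The next question was whether the loss of STING changed the desmosome genes. In unirradiated cells DSC3 alone passed, 25.0% higher in STING KO, so that 1 of 10 members was called, where 0.463% of all tested genes were called higher and 1.73% in either direction. From 116, 111 and 105 TPM in STING WT it stood at 132, 141 and 141 TPM in STING KO, with no overlap. The difference was 0.32 on the log2(TPM + 1) scale (SE 0.049, interval 0.21 to 0.43, adjusted p = 0.0077). A fit to only the 6 libraries compared gave the same difference with an adjusted p of 0.092. DSC2 and PERP were the other members whose libraries did not overlap, so 3 of 10 were higher in this sense, against 8.51% of all tested genes. DSC2 was at 24.3, 24.1 and 25.8 TPM in STING KO against 22.0, 19.8 and 21.9 TPM in STING WT, a difference of 0.21 that did not pass (interval 0.06 to 0.36, adjusted p = 0.17).

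After RT the same pattern was seen. DSC3 alone passed, at 104, 109 and 108 TPM in STING KO against 84.6, 84.8 and 80.6 TPM in STING WT. It was 28.5% higher, or 0.36 on the log2(TPM + 1) scale (SE 0.049, interval 0.25 to 0.47, adjusted p = 0.0027). That is 1 of 10 members, where 0.927% of all tested genes were called higher and 3.59% in either direction. DSC2 read 20.7, 21.7 and 24.0 TPM in STING KO against 18.6, 19.2 and 18.2 TPM, a difference of 0.23 (interval 0.08 to 0.38, adjusted p = 0.095). PERP was at 213, 215 and 218 TPM against 210, 194 and 188 TPM, a difference of 0.12 (interval 0.01 to 0.23, adjusted p = 0.22). The libraries of these 3 members did not overlap, against 9.62% of all tested genes. JUP was the single member apart in the other direction, against 14.5%, with 298, 295 and 286 TPM in STING KO and 319 TPM in each STING WT library. Its difference of -0.12 did not pass (interval -0.21 to -0.03, adjusted p = 0.14).

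Averaged over both treatments, again added after the values were seen, both desmocollins were higher in STING KO cells. DSC3 differed by 0.34 (SE 0.035, interval 0.26 to 0.42, adjusted p = 0.00021) and DSC2 by 0.22 (SE 0.047, interval 0.12 to 0.33, adjusted p = 0.020). That is 2 of 10 members, where 2.47% of all tested genes were called higher. Without replicate 3 of unirradiated STING KO the DSC2 value was 0.21 with an adjusted p of 0.052. Neither desmoglein passed. DSG2 differed by 0.04 (interval -0.02 to 0.09) and DSG3 by 0.02 (interval -0.07 to 0.11), so a rise of the size seen in DSC3 lies outside both intervals. PERP (0.12, adjusted p = 0.060) and JUP (-0.09, adjusted p = 0.091) did not pass. PERP was called with median-of-ratios factors (adjusted p = 0.021), with a filter at a mean of 5 TPM (0.048) and without replicate 1 of irradiated STING WT (0.034).

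**Figure D3:**
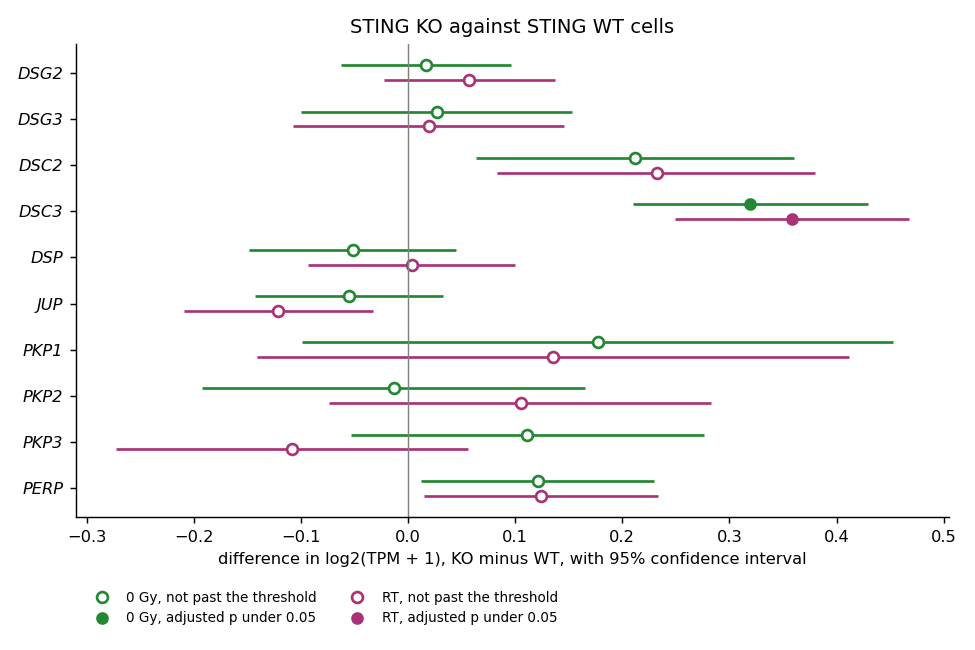
Difference in log2(TPM + 1) between STING KO and STING WT cells for each gene, with its 95% confidence interval, at 0 Gy (green) and after RT (purple), from 3 libraries per group. DSC3 is the one filled point at each dose, at 0.32 and 0.36, and the intervals of DSG2 and DSG3 include 0.

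These differences altered the make-up of the cadherin transcripts. Desmocollins made up 29.9% ± 0.723 (SD, n = 3) of the summed TPM of the 4 cadherins in unirradiated STING WT cells and 34.2% ± 0.660 in unirradiated STING KO cells. After RT the shares were 27.2% ± 0.102 and 31.3% ± 0.354. The libraries of the 4 groups did not overlap in this share, which was highest in unirradiated STING KO and lowest in irradiated STING WT cells. DSC3 was the larger part of the desmocollins throughout, at 83.9% ± 1.09, 84.8% ± 0.554, 81.7% ± 0.222 and 82.9% ± 0.929 in the same order of groups. DSG3 was a minor part of the desmogleins, at 11.4% ± 0.346 and 11.5% ± 0.600 without RT and at 9.85% ± 0.0920 and 9.62% ± 0.114 after it. All 6 irradiated libraries lay below all 6 unirradiated ones. Among the 3 plakophilins, PKP1 made up 6.61 to 9.22% in unirradiated STING WT cells and 8.83% ± 0.603 in unirradiated STING KO cells, and 6.41% ± 0.414 and 7.25% ± 0.516 after RT. In STING WT cells these libraries overlapped between RT and 0 Gy. PKP3 was the largest part, and its share overlapped between RT and 0 Gy in both lines. The PKP2 share did not overlap. It was 21.3 to 24.3% at 0 Gy and 24.4 to 27.4% after RT in STING WT, and 20.8 to 22.0% and 24.6 to 30.6% in STING KO. These shares are descriptions without a test.

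**Figure D4:**
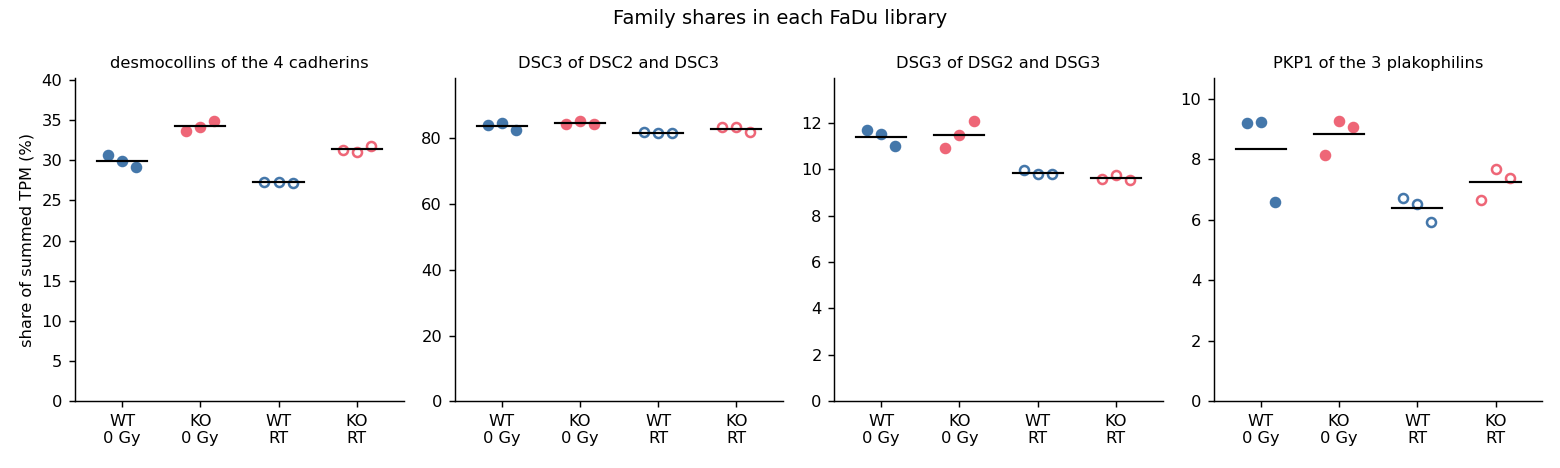
Share of summed TPM, in percent, held by the desmocollins among the 4 cadherins, by DSC3 among the desmocollins, by DSG3 among the desmogleins and by PKP1 among the 3 plakophilins, in each library with the mean of 3 as a bar. Blue marks STING WT, red STING KO, filled points 0 Gy and open points RT. The desmocollin share separates all 4 groups, and the DSG3 share separates RT from 0 Gy.

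The genes whose pattern over the 12 libraries was most like that of a member were taken for the 3 members with the widest span of group means. For DSC3 they were KRT4, a keratin of internal squamous epithelia (Pearson r = 0.994), ALDH3A1, an aldehyde dehydrogenase (r = 0.993) and KITLG, the ligand of KIT (r = 0.993). KRT4 had group means of 25.0 TPM in STING WT and 58.5 TPM in STING KO at 0 Gy, and 8.67 and 24.7 TPM after RT. PKP1 was most like TRIM29 (r = 0.974), ITGB8 (r = 0.972) and CAV2 (r = 0.965), and DSG3 most like PPP3CB (r = 0.979), UBTD2 (r = 0.972) and ETFDH (r = 0.970). These r values describe n = 12 libraries in 4 groups, were picked as the highest of all tested genes, and carry no test.

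The other genes of desmosomes and plakins differed widely in level. In unirradiated STING WT cells, PPL had a mean of 187 TPM, PKP4 73.5 TPM and EVPL 14.2 TPM. DSG1, DSG4, DSC1 and CDSN, which mark cornifying layers, did not pass the filter, and DSG1 had the highest group mean of them at 0.433 TPM. Of the 3 tested genes, PPL, PKP4 and EVPL, none passed in any of the 4 comparisons (limma), with an unadjusted p under 0.05 for 1 of 3 after RT in STING WT and for 0 of 3 in the others. PPL, the periplakin gene, differed by -0.18 after RT in STING WT and by 0.11 in STING KO, and PKP4, a relative of the plakophilins, by -0.20 and -0.15. DSG1-AS1 was the only antisense gene of the list that was tested, and it did not pass, at low group means of 2.16 to 3.83 TPM. It differed by -0.32 after RT in STING WT and by 0.575 in STING KO, where its libraries did not overlap. After RT it was higher in STING KO than in STING WT by 0.63. The differences of 0.575 and 0.63, and that of 0.897 between both RT effects, had an unadjusted p under 0.05 (limma).

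Keratins, to which desmoplakin binds, moved in both directions after RT. Of 11, KRT16 and KRT18 rose, KRT19 fell and 8 did not pass, in STING WT and in STING KO cells alike. Of all tested genes, 3.74% were called after RT in STING WT and 3.69% in STING KO. KRT16, a keratin of stressed epidermis, had a difference of 0.91 in STING WT (adjusted p = 0.0034) and 0.85 in STING KO (adjusted p = 0.0051). KRT18, a keratin of simple epithelia, had 0.53 and 0.49. KRT19 had -0.52 and -0.45, with group means of 1027 and 1396 TPM in unirradiated STING WT and STING KO cells and 717 and 1022 TPM after RT. In STING KO against STING WT, KRT19 was higher by 0.44 at 0 Gy and 0.51 after RT, and KRT17 was lower by 0.29 and 0.46. KRT14 was called higher at 0 Gy, by 0.24. Between the lines, 1.73% of all tested genes were called at 0 Gy and 3.59% after RT. Keratin genes have close relatives and pseudogenes, so reads may have been split among them, which was not tested. The median over the 11 keratins was 0.04 after RT in STING WT and -0.08 in STING KO, beside -0.16 and -0.16 over the desmosome members.

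The other junctions of the same cells were counted in the same way, where 3.74% and 3.69% of all tested genes were called after RT in STING WT and STING KO. In STING KO against STING WT, 1.73% were called at 0 Gy and 3.59% after RT. Of 10 adherens junction genes, NECTIN1, an immunoglobulin-like adhesion molecule, fell after RT in both lines, by 0.33 in STING WT and 0.42 in STING KO, and 9 did not pass. In STING KO against STING WT none of the 10 passed (limma), with 2 at an unadjusted p under 0.05 at 0 Gy and 0 after RT, and VCL and CTNNA1, the most abundant, differed by 0.19 and 0.36 at 0 Gy and by less than 0.01 after RT. Of 10 tight junction genes, OCLN, the occludin gene, rose after RT in STING WT by 0.30 (adjusted p = 0.049). None passed in STING KO (limma), where OCLN alone had an unadjusted p under 0.05, with a difference of 0.26. CGN, the cingulin gene, was higher in STING KO than in STING WT by 0.38 at 0 Gy and 0.36 after RT. Of 6 hemidesmosome genes, none passed after RT (limma, 3 at an unadjusted p under 0.05 in STING WT and 1 in STING KO). ITGB4 and CD151, the most abundant, differed by -0.26 and -0.03 in STING WT and by -0.30 and 0.14 in STING KO. In STING KO against STING WT none of the 6 passed at 0 Gy (limma, 2 at an unadjusted p under 0.05), and COL17A1 was lower in STING KO after RT, by 0.43 (adjusted p = 0.022). Averaged over both lines, where 10.2% of all tested genes were called after RT in either direction, NECTIN1 alone of the 10 adherens junction genes was lower (-0.37), and OCLN alone of the 10 tight junction genes was higher (0.28). In that comparison 2 of 6 hemidesmosome genes were lower, ITGB4, an integrin subunit (-0.28, adjusted p = 0.0080), and DST, the dystonin gene (-0.13, adjusted p = 0.036). The median difference after RT was 0.01 and 0.02 over the adherens junction genes, -0.05 and 0.05 over the tight junction genes and -0.14 and -0.05 over the hemidesmosome genes, in STING WT and STING KO. The lists were not compared with each other by a test.

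**Figure D5:**
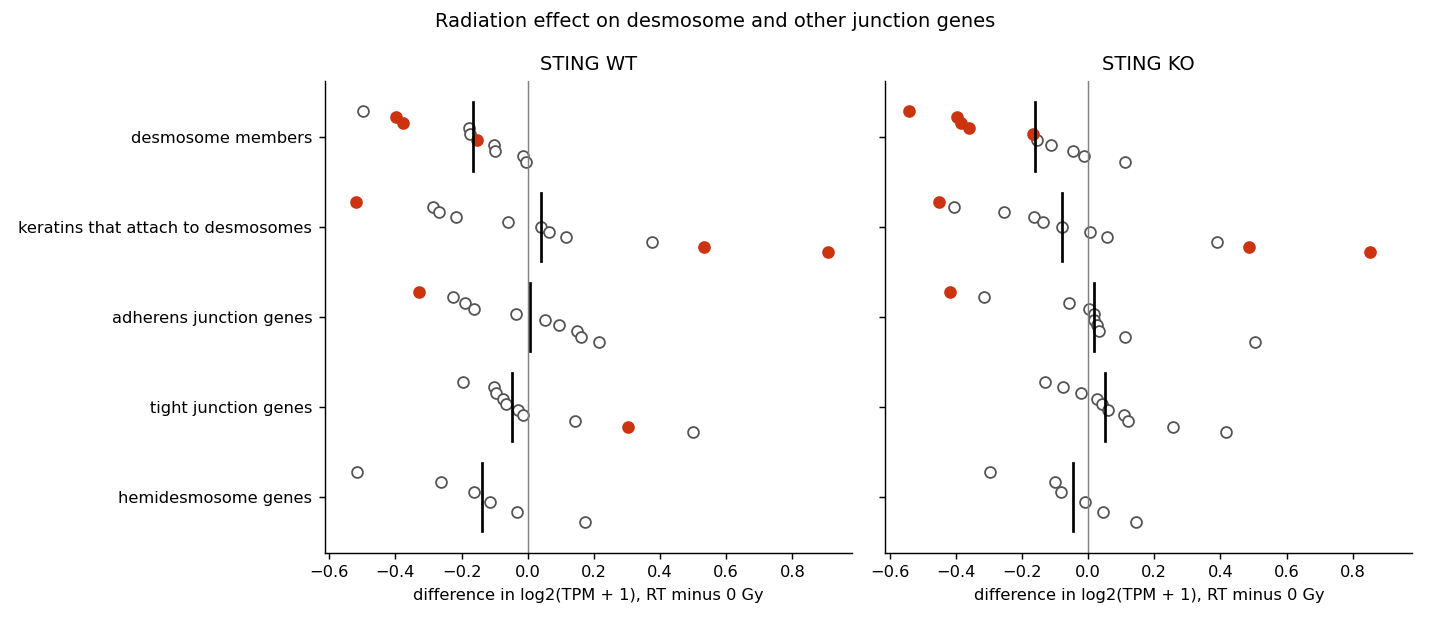
Difference in log2(TPM + 1) between RT and 0 Gy for each tested gene of the desmosome and of 4 other lists, in STING WT (left) and STING KO cells (right). Each point is a gene, filled red where its adjusted p was under 0.05, and the vertical bar is the median of the list. The desmosome medians are -0.16 in both lines, and the red points of the keratins lie on both sides of 0.

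After RT in STING WT and STING KO, 3.74% and 3.69% of all tested genes were called. In STING KO against STING WT the shares were 1.73% at 0 Gy and 3.59% after RT. Among 11 tested transcription factors of epithelial junction genes, 2 rose and 1 fell after RT in each line. OVOL1, an epithelial repressor of mesenchymal genes, rose in both, by 0.48 in STING WT and 0.41 in STING KO. GRHL2, a grainyhead activator of junction genes, fell in both, by 0.19 and 0.20. SNAI1, which encodes SNAIL, rose in STING WT from 1.49 ± 0.0449 to 2.89 ± 0.368 TPM (SD, n = 3, adjusted p = 0.023), and GRHL1 rose in STING KO by 0.35 (adjusted p = 0.023). SNAI1 differed by 0.25 in STING KO and GRHL1 by 0.03 in STING WT, and neither passed there. In STING KO against STING WT, 0 of 11 passed at 0 Gy (limma, 4 at an unadjusted p under 0.05), where the most abundant, KLF5, differed by -0.16, and GRHL1 was higher after RT, by 0.33. Of 12 proteases, kinases and other regulators of desmosomes, TGM1, a transglutaminase of the cornified envelope, fell in both lines, by 0.62 and 0.83. EGFR fell in STING WT by 0.23, and SRC rose in STING KO by 0.17. EGFR differed by -0.12 in STING KO and SRC by 0.13 in STING WT, and neither passed there. In the difference between both RT effects, none of these 12 or of the 11 transcription factors passed (limma). An unadjusted p under 0.05 was held there by 2 and 1 of them. None of the 12 passed in STING KO against STING WT (limma, 4 at an unadjusted p under 0.05 at 0 Gy and 5 after RT), and ATP2A2, the calcium pump mutated in Darier disease, differed by 0.07 and -0.01 and EGFR by -0.07 and 0.04.

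Markers of other cell types also moved with radiation. After RT, 3.74% of all tested genes were called in STING WT and 3.69% in STING KO. At 0 Gy, 1.73% were called in STING KO against STING WT. Of the 4 mesenchymal markers tested, 2 rose after RT in each line and none fell. CDH2, the N-cadherin gene, rose from 9.06 ± 0.622 to 14.0 ± 0.195 TPM in STING WT (SD, n = 3) and from 8.98 ± 0.169 to 14.5 ± 0.611 TPM in STING KO, and FN1 rose by 0.68 and 0.92 on the log2(TPM + 1) scale. The summed mesenchymal level was 86.0 to 91.7 TPM at 0 Gy and 102 to 108 TPM after RT in STING WT, and 71.2 to 76.9 TPM and 83.2 to 91.1 TPM in STING KO. SNAI2, which did not pass after RT in either line, made up most of this sum. Its means at 0 Gy and after RT were 68.0 and 73.1 TPM in STING WT and 58.3 and 61.3 TPM in STING KO. Of the 2 endothelial markers tested 1 rose, CDH5, by 0.61 in STING WT and 0.615 in STING KO, and PECAM1 did not pass the filter. Of the 6 squamous markers, EPCAM rose by 0.15 and 0.18 and no other passed after RT. In STING KO against STING WT at 0 Gy, where DSC3 was higher, FN1 was lower by 0.83, CD14, the 1 immune marker tested, was higher by 0.40 and KRT14 was the 1 squamous marker called. After RT no marker passed in that comparison (limma), though 2 of 6 squamous, 2 of 4 mesenchymal and 1 of 2 endothelial markers had an unadjusted p under 0.05. The part of these changes in those of the desmosome genes was not tested.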

How the data were processed

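Polyadenylated RNA of 12 FaDu libraries was sequenced as paired ends. The authors deposited TPM for 58288 genes, each library summing to 1000000, so counts and depth were not used here and no counting error could be given. The submitters' processing notes name HISAT2, StringTie, DESeq2 and hg38, without versions. Table columns were assigned to STING WT where their head matched the non-targeting gRNA and to STING KO where it named the other line.

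The 15973 genes with at least 1 TPM in 3 or more libraries were tested as log2(TPM + 1). In R 4.3.3, limma 3.58.1 was used with a mean per group (4 means, 8 residual degrees of freedom, eBayes with trend), and p-values were adjusted over all tested genes by Benjamini-Hochberg with a threshold of 0.05. A difference on the log2(TPM + 1) scale understates the change of low genes. The code was tested on simulated data. Percent changes are ratios of mean TPM.

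The members, lists and rules were chosen with earlier results of these data known. Genes named are TMEM173, the 10 members, up to 4 called genes per list and comparison (or the 2 most abundant where none passed), and the 3 genes most alike in pattern to each of 3 members. Comparisons averaged over lines or treatments, the motifs and the promoters printed were chosen after the values were seen. The called cell type markers are also named, and SNAI2 for its part in the summed mesenchymal level. The result of 1 further gene of the lists is not reported here. Positions are from GENCODE 29, matched for all 10 members, and promoters from RefSeq (GRCh38.p14), matched for 8. Alternatives were quantile normalization, median-of-ratios factors, a pseudocount of 0.1, no filter, a filter at a mean of 5 TPM, no trend, a replicate block, only the 6 libraries compared, and each library left out. The labels give no batch.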

Additional observations from a re-analysis of the deposited data

How the results depend on the processing

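No difference of a desmosome member that was called changed its direction under any setting tried. After RT in STING KO, the 5 called members became 3 without the filter on low values, 3 with the replicate block and 2 in a fit to only the 6 libraries compared, and lay between 2 and 5 with single libraries left out. In STING KO against STING WT at 0 Gy the 1 called member became 0 with only the 6 libraries compared. Averaged over treatments, the 2 called members became 1 to 3 with single libraries left out. PKP1 after RT in STING WT was called in 3 of the 8 other settings (quantile normalization, median-of-ratios factors and a filter at a mean of 5 TPM). Its adjusted p over those 8 ran from 0.039 to 0.2. The calls of DSG2 after RT in STING WT and of JUP after RT in STING KO each held in 3 of the 8. Both were lost without the filter, with quantile normalization, without trend, with the replicate block and with only the 6 libraries compared. The adjusted p ran from 0.026 to 0.14 for DSG2 and from 0.016 to 0.14 for JUP. The replicate numbers showed no shared deviation: the deviations of same-numbered libraries from their group means correlated at -0.06 to 0.064, with 0 of 18 pairs above 0.1. The labels do not say whether same-numbered libraries were paired. With the replicate block, 2 members in place of 3 were called after RT in STING WT, without DSG2, and apart from the 5 that became 3 the other member counts were unchanged.

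Counts over all genes moved more. They were 276 and 573 for STING KO against STING WT at 0 Gy and after RT, and 597 and 590 for RT in STING WT and STING KO. The replicate block gave 211, 378, 315 and 359, and only the 6 libraries 103, 252, 166 and 195. The difference between both RT effects has no such 6-library fit, and its 3 genes became 7 without the filter, and 1 with the replicate block or without trend. Median-of-ratios factors moved the genes called higher from 74 of 276 to 115 of 306 for STING KO at 0 Gy, from 357 of 597 to 300 of 606 for RT in STING WT and from 319 of 590 to 273 of 655 for RT in STING KO. For the averaged comparisons it moved them from 395 of 1187 to 554 of 1185 (589 of 1175 with quantile normalization) and from 981 of 1627 to 738 of 1596. Single libraries left out gave 172 or more, 313 or more, 242 or more and 268 or more. The cause of these shifts was not tested.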

Other observations

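Some junction genes had a wider range between libraries of 1 group, as the ratio of the highest to the lowest TPM, than any desmosome member, and these were chosen after their values were seen. CLDN4, a claudin of tight junctions, ranged from 1.22 to 87.3 TPM in unirradiated STING WT cells, from 1.70 to 77.9 TPM in unirradiated STING KO cells and from 2.49 to 104 TPM in irradiated STING WT cells. CTNND1, which encodes p120-catenin, ranged from 153 to 285 TPM in unirradiated STING WT cells. PPL ranged from 120 to 209 TPM in unirradiated STING KO cells, beside 182 to 190 TPM in unirradiated STING WT cells. EVPL, the envoplakin gene, ranged from 13.8 to 33.1 TPM in unirradiated STING KO cells and from 13.3 to 13.5 TPM in irradiated STING KO cells.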
